A study of Mus musculus with 2 samples.

Results

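Replication-dependent histone genes encode the core histones H2A, H2B, H3 and H4 and the linker histone H1. The members were all non-control probes whose gene name on the array starts with Hist1h, Hist2h, Hist3h or Hist4. This gave 68 of 56605 probes and 56 of 37074 gene names. By type there were 6 H1, 18 H2A, 14 H2B, 9 H3 and 9 H4 genes. The cluster was taken from the gene name. By this, 42 genes belonged to Hist1 on chromosome 13 and 10 to Hist2 on chromosome 3. Hist3 on chromosome 11 had 3 and Hist4 on chromosome 6 had 1.

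The cells were 46C, a mouse embryonic stem cell line that carries a GFP reporter at Sox1, and both groups were grown in serum with LIF on feeder cells that were taken off before harvest. One group, labelled shCtrl, is the control, although the title of its sample calls it wild type and names no hairpin. The other, labelled shLincU, is a knockdown of the long noncoding RNA LincU. Total RNA of each was hybridised as Cy3-labelled cRNA to 1 one-colour Agilent array per group, both on the same slide, so no difference below has a replicate check or a p-value. The level of LincU was not analysed here, so a direction is only as good as the genotype given for each array.

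These genes are transcribed mainly in S phase, when new nucleosomes are assembled on copied DNA, and embryonic stem cells spend much of their cycle in S phase. Unlike other messenger RNAs, theirs usually carry no introns and no poly(A) tail: they end in a short stem-loop that the protein SLBP binds, and U7 small nuclear RNA directs the cut just behind it. Some members can also end further downstream at a polyadenylation signal, as they do in cells that have left the cycle. The protocol in the labels used a linear amplification kit, and the sources used here do not give the primer for its first strand. Kits of this kind usually prime on poly(A) tails.

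A level is given here as log2 of the processed intensity of a probe over the 75th percentile of its own array, which was 625.7 for shCtrl and 420.1 for shLincU. A difference is the shLincU level minus the shCtrl level. The 2 arrays had a correlation of 0.990 over the 31899 probes well above background on both, no probe was saturated, and 60.9% of probes on shCtrl and 57.9% on shLincU were well above background. The scanner software's error of a gene's difference had a median of 0.20; it covers spots on these arrays and not the spread between cultures. In bulk RNA, more cells in S phase and more histone RNA per cell cannot be told apart.

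Of the 56 histone genes, 49 were measured on both arrays, and most lay higher in shLincU. Their median difference was 0.37, or 1.29-fold, against a median of 0.02 over all 21043 genes measured. Of the 49, 41 were above 0, against 53.1% of all genes. At least 1.5-fold higher were 19 of the 49, or 38.8%, where 4.78% of all genes were, and 0 were at least 1.5-fold lower, where 4.85% of all genes were. The shift was broad and small: 1 histone gene was at least 2-fold higher, where 1.15% of all genes were, and 0 were at least 2-fold lower, where 1.53% of all genes were. These values are relative to the rest of each array. Scaled to the spiked-in E1A control RNAs instead, the median of all genes was -0.87 and that of the histone genes -0.52. Each scaling takes a single constant from an array, so the gap between these medians is unchanged by construction. On the spike-in scale 48 of the 49 histone genes lay below 0, as did 98.5% of all genes.

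**Figure D1:**
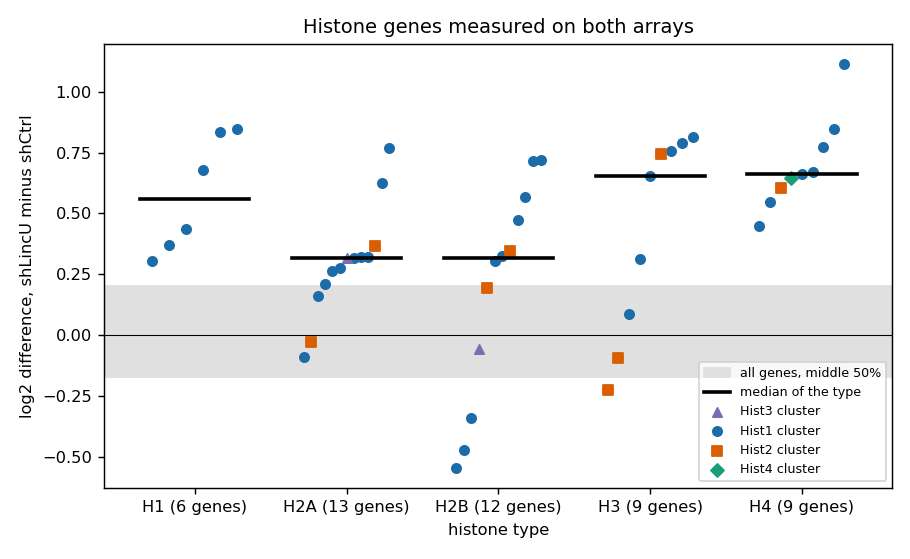
Difference in level (shLincU minus shCtrl, log2) of each of the 49 histone genes measured on both arrays, by histone type, with the cluster as colour and shape, the median of each type as a black line, and the middle 50% of all genes as a grey band. All H1 and H4 genes lie above the band, while H2A, H2B and H3 genes run from below 0 to above 0.7.

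H4, the core histone that pairs with H3, was higher in shLincU at all 9 genes, with a median of 0.66, close to the 0.65 of H3. The range was 0.45 to 1.11, and 7 of them were at least 1.5-fold higher, where 4.78% of all genes were. Probes of Hist1h4c, Hist1h4d, Hist1h4k and Hist1h4m, among others, list 2 or more histone genes, so the 9 are not independent measures. Hist1h4h had the largest difference of any member. Its intensity was 89.4 for shCtrl and 129.8 for shLincU, which are levels of -2.81 and -1.69 and a difference of 1.11, or 2.16-fold. It is a dim gene measured by 1 probe, and at least 2 of the 14 spots around that probe also differed 2-fold or more in 1 direction.

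Hist1h4c had levels of 0.63 and 1.48, a difference of 0.85. Hist1h4k, at 5.35 and 6.12, differed by 0.77, and its 2 probes gave 0.66 and 0.89. The lowest H4 differences were still above the middle 50% of all genes. They were those of Hist1h4i at 0.45 (levels -0.06 and 0.39), Hist1h4m at 0.55 (levels -1.50 and -0.96) and Hist2h4 at 0.60 (levels 6.70 and 7.30).

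The precision of spots on these arrays can be read from Hist1h4d, 1 of whose probes was printed 10 times. Its intensities ran from 123263 to 133887 for shCtrl and from 125614 to 138001 for shLincU, and the 10 differences from 0.56 to 0.69. Their mean was 0.61 ± 0.041 (SD, n = 10 spots), a spread between spots and not between cell cultures. The other Hist1h4d probe gave 0.72, outside the range of those spots.

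H3, whose tail carries much of the known histone marking, held both high and low genes. The 9 H3 genes had a median of 0.65, and 5 were at least 1.5-fold higher, where 4.78% of all genes were. All 6 Hist1 H3 genes were above 0, with a median of 0.71, while the 3 Hist2 H3 genes had a median of -0.09. Hist1h3c stood at 3.91 on shCtrl and 4.72 on shLincU, a difference of 0.81. Hist1h3f, at -0.87 and -0.08, differed by 0.79, and Hist1h3i, at -1.19 and -0.43, by 0.76. The 3 genes differed by much the same amount, each by more than the software error of 0.20.

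The low end of H3 was Hist2h3c1 at -0.22 (levels -3.03 and -3.25), Hist2h3c2 at -0.09 (levels -2.97 and -3.07) and Hist1h3g at 0.09 (levels 0.64 and 0.72). The Hist2 genes among them are dim, and none of their 3 probes lists a RefSeq accession in the deposited files. Hist2h3b, the third H3 gene of that cluster, differed by 0.74 (levels 2.49 and 3.23) at a probe that lists 3 histone genes.

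H1, which binds the linker DNA between nucleosomes, was higher at all 6 genes, with a median of 0.56. At least 1.5-fold higher were 3 of the 6, where 4.78% of all genes were. Hist1h1d had intensities of 1355 and 1638, a difference of 0.85 after scaling. Hist1h1a, at 1.41 and 2.25, differed by 0.84, and Hist1h1e, at 3.26 and 3.94, by 0.68. The testis-specific H1 gene Hist1h1t was dim, with levels of -2.81 and -2.37 and a difference of 0.44. Hist1h1b had levels of 4.86 and 5.23 and the second smallest difference, 0.37. The smallest, 0.30 at Hist1h1c, is a mean of probes that disagree and is taken up below.

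H2A and H2B, which form the dimers on either face of the nucleosome, had the lowest medians, 0.32 each. Of 13 measured H2A genes 11 were above 0. Against 4.78% of all genes, 2 of the 13 were at least 1.5-fold higher. These were Hist1h2ai, with levels of 0.60 and 1.37 and a difference of 0.77, and Hist1h2ab, at 6.27 and 6.89, with 0.63. Next came the dim Hist2h2ab with 0.37 (levels -3.55 and -3.18). The array coordinates of the measured Hist1h2ai probe overlap those of much brighter probes of other H2A genes, which differed by 0.28 to 0.32. The other Hist1h2ai probe has coordinates elsewhere and was not well above background. The value of 0.77 therefore may not be that of Hist1h2ai alone. The lowest H2A values lay close to 0: Hist1h2ae at -0.09 (levels -2.25 and -2.34), Hist2h2ac at -0.03 (levels 8.45 and 8.42) and Hist1h2ah at 0.16 (levels 8.71 and 8.88).

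Of 12 measured H2B genes 8 were above 0. Against 4.78% of all genes, 2 of the 12 were at least 1.5-fold higher. Hist1h2bm had levels of 2.75 and 3.47, a difference of 0.72. Hist1h2bb, at -0.06 and 0.66, also differed by 0.72, with 0.57 and 0.87 at its 2 probes, and Hist1h2bf, at 1.44 and 2.01, by 0.57. H2B also held the lowest members of all. Hist1h2bp was lower in shLincU by 0.54 (intensities 161.0 and 74.2), Hist1h2bq by 0.47 (levels -3.38 and -3.85) and Hist1h2bc by 0.34 (levels 1.77 and 1.43). Their probes are rich in A and T, with a GC content of 35% to 40%.

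The members with no difference were all H2A or H2B genes. The probes of Hist1h2ac, Hist1h2ad, Hist1h2al and Hist2h2aa1 were not well above background on either array. The name Hist1h2al matched the RefSeq pseudogene H2af-ps2, and its probe, at chr13:51295494-51295553, lies far from the other Hist1 probes. The spot of Hist2h2aa2 was marked as an outlier on the shLincU array and left out. Hist1h2bg and the pseudogene Hist3h2bb-ps were well above background on shCtrl only. Set against the higher of their own signal and the lowest signal above background for shLincU, Hist1h2bg was at least 1.43-fold and Hist3h2bb-ps at least 1.08-fold lower there, with intensities of 47.9 and 22.5 for the former and 33.4 and 17.0 for the latter.

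**Figure D2:**
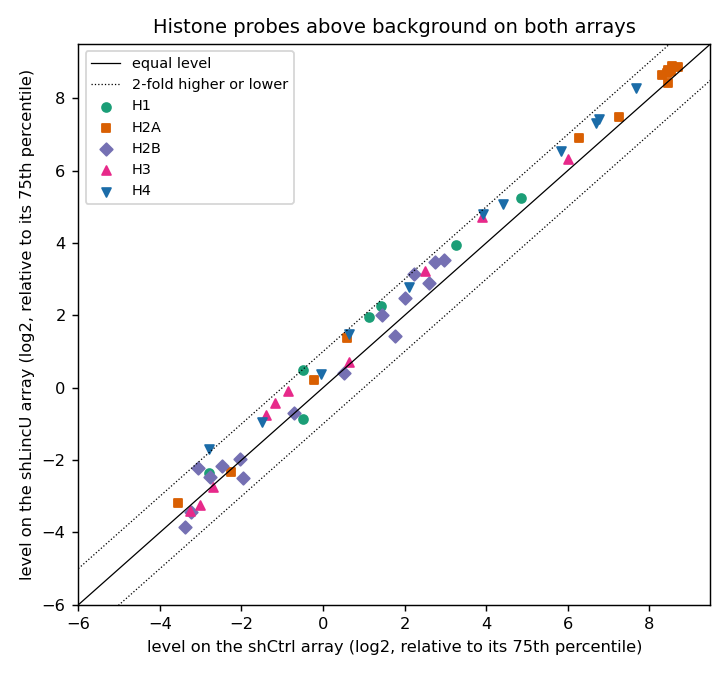
Level of each of the 58 histone probes well above background on both arrays, for shCtrl (x axis) and for shLincU (y axis), as log2 relative to the 75th percentile of the array, with the histone type as colour and shape. Of the 58 points 47 lie above the line of equal levels, but only 6 of the 13 with a mean level under -2 do, and many H2A probes cluster at the bright end.

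By cluster, Hist1 had a median of 0.46, with 34 of 38 measured genes above 0 and 16 at least 1.5-fold higher. Hist2 had a median of 0.27, with 5 of 8 above 0 and 2 at least 1.5-fold higher. Over all genes 53.1% were above 0 and 4.78% at least 1.5-fold higher. In the small Hist3 cluster the H2A gene Hist3h2a differed by 0.32 (levels 3.52 and 3.84), with 0.22 and 0.41 at its 2 probes. The H2B gene Hist3h2ba differed by -0.06 (levels -0.09 and -0.15), with 0.01 and -0.12 at its probes. Hist4h4, the only member of Hist4, encodes H4 and stood with the H4 genes of the other clusters: its intensities of 13398 and 14089 are levels of 4.42 and 5.07, a difference of 0.65. The clusters differ in their makeup, since all 6 H1 genes and 7 of the 9 H4 genes are in Hist1, so cluster and type cannot be told apart in these medians.

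Of 3 genes measured both at the stem-loop and further downstream, 2 had differences over 1 apart at these probes. A probe was taken to reach the stem-loop where its own strand holds the letters AAGGCTCTT, with which most of these stem-loops begin, or a whole histone stem-loop core, in which a loop of 4 letters parts 6 letters from the 6 that pair with them. This held for 10 histone probes and 14 of all other probes. All 10 histone probes were measured and above 0, where 53% of all probes were, with a median of 0.64. The 48 histone probes measured without such letters were mostly higher too. Of these, 37 were above 0 and 17 at least 1.5-fold higher, with a median of 0.35. Of the 10, 6 were at least 1.5-fold higher, where 5.39% of all probes were, and 0 were at least 1.5-fold lower, where 4.71% were. The windows below are parts of these 60-base probes, shown because they mark an end of the RNA that carries no poly(A) tail. Capitals mark the core, and coordinates are those of the array, in mm9.
Hist2h2bb, chr3:96074089-96074114, plus strand: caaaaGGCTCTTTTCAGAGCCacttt
Hist1h2bf, chr13:23665629-23665654, minus strand: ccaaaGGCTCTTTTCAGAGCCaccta
Hist1h3a, chr13:23853756-23853779, minus strand: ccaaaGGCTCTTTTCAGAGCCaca
Hist1h3i, chr13:21874784-21874809, minus strand: caaaaGGCTCTTTTCAGAGCCccctc
Hist1h3g, chr13:23627753-23627778, plus strand: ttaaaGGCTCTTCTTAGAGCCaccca
Hist1h4m, chr13:21903993-21904018, plus strand: ctaaaGGCCCTTTTCAGGGCCatcca

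The first 4 windows share 1 core, and their probes differed by 0.90, 0.57, 0.65 and 0.76 between the arrays. Hist1h3g and Hist1h4m hold other letters in the core and differed by 0.09 and 0.55. Among the 10 stem-loop probes the range was 0.01, at Hist3h2ba, to 0.98, at Hist1h1c. Of the 14 other probes with such letters 11 were measured, with a median of -0.23, and the 1 of them with a whole core was at -0.03.

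Hist2h2bb, an H2B gene, has its stem-loop probe at intensities of 2959 and 3696, a difference of 0.90. Its other probe lies 8638 bases beyond the end of the first on the same strand. It had intensities of 66.5 and 38.7 and differed by -0.21. This dim probe lay beside discordant spots, and its software error of 0.29 was larger than the size of that difference. With spots beside discordant spots left out, Hist2h2bb was at 0.90, the value of its stem-loop probe alone. That downstream probe holds the letters AATAAA, which can be a polyadenylation signal. So do probes of Hist3h2ba with -0.12, Hist2h2be with 0.07 and Hist1h2ag with 0.21, and the 4 had a median of -0.03. In the Hist1h2ag probe, however, the letters follow bases that also end the coding sequence in the Hist1h2ak probe below, and they take in a stop codon. They need not be a signal there, and the median includes that probe. Windows of Hist2h2bb, Hist3h2ba and Hist2h2be are shown with these letters in capitals to set them against the stem-loop windows. AATAAA occurs in 9.77% of all probes, and a match by itself marks no RNA end.
Hist2h2bb, chr3:96082779-96082804, plus strand: tgtcagtttgAATAAAgacagagaaa
Hist3h2ba, chr11:58762999-58763023, plus strand: taatggtattAATAAAtttggttca
Hist2h2be, chr3:96027578-96027598, plus strand: gatcgAATAAAtccattcact

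Hist1h1c, an H1 gene, showed the same split. At its stem-loop probe the intensity was 448.7 on shCtrl and 592.9 on shLincU, a difference of 0.98, and at a probe 628 bases beyond its end it was 446.9 and 232.7, a difference of -0.37. These were the 2 genes, of 9 histone genes with several measured probes, whose probes differed by over 1. Among all 7132 genes with several measured probes 354, or 4.96%, did so. The third gene, Hist3h2ba, was at 0.01 and -0.12.

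**Figure D3:**
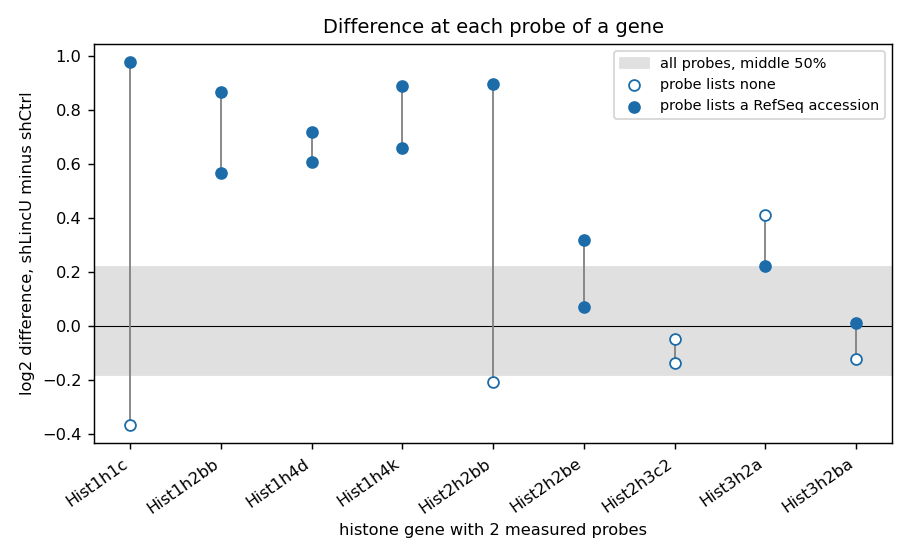
Difference in level (shLincU minus shCtrl, log2) at each measured probe of the 9 histone genes with 2 such probes, filled where the probe lists a RefSeq accession and open where it lists none, with the middle 50% of all probes as a grey band. The probes of Hist1h1c and Hist2h2bb lie on opposite sides of 0, and those of the other 7 genes lie close together.

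Both downstream probes list no RefSeq accession in the deposited files, and this held more widely. Of the 53 histone probes that list a RefSeq accession 50 were measured, with a median of 0.56, and 46 of them were above 0. Of the 15 that list none 8 were measured, with a median of -0.13, and 1 was above 0, the Hist3h2a probe at 0.41. Over all probes of the array the medians with and without an accession were 0.01 and 0.05, so the gap of the histone probes was not seen there. The 8 measured probes without an accession had a GC content of 35% to 43.3% and intensities for shCtrl of 65.3 to 895.1. Histone probes with a GC content under 45% had a median of -0.12 (n = 15), those from 45% to under 55% of 0.57 (n = 19) and those of 55% and over of 0.59 (n = 24), against -0.02, 0.05 and 0.10 over all probes. Histone probes with a mean level under -2 had a median of -0.05 (n = 13), against 0.08 over all probes. The part that GC content, level and the end of the RNA have in the split was not tested.

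Many members could not be told apart by their probes. Of the 68 histone probes 18 list 2 or more histone genes, in files that give at most 4 accessions a probe. The 4 H2A probes below, shown because they are so alike, end in a stop codon and share a stretch of 34 bases, given in capitals, which 5 probes of the array hold.
Hist1h2ah, chr13:22127035-22127094, minus strand: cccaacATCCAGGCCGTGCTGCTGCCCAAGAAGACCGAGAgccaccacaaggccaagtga
Hist1h2ak, chr13:21845304-21845363, minus strand: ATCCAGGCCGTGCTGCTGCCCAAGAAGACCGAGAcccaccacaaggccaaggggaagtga
Hist1h2af, chr13:23626113-23626172, plus strand: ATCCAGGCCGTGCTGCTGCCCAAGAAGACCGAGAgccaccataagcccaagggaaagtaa
Hist2h2ac, chr3:96024378-96024437, minus strand: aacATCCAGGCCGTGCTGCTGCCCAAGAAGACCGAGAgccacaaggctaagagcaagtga

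Their intensities on shCtrl and shLincU were 262864 and 197321 for Hist1h2ah and 222026 and 186116 for Hist1h2ak. They were 221028 and 178146 for Hist1h2af and 218380 and 143724 for Hist2h2ac. The differences were 0.16, 0.32, 0.26 and -0.03. These probes lie at the bright end of the array, their values may hold RNA of several H2A genes, and they are not independent measures. Of all 661 probes at a mean level of 7 or over the median was 0.15, and 86.4% were above 0, against a median of 0.30 and 11 of 12 for the histone probes among them. With quantile normalization, which sets the bright ends of both arrays equal, the median of the H2A genes was 0.08, and in the deposited value table it was 0.07. The H2A genes with the largest differences, Hist1h2ai and Hist1h2ab, were both read by stem-loop probes.

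The promoters of these genes are known for type-specific elements, and the octamer ATTTGCAT is that of H2B genes, many of which lie head to head with an H2A gene. In the 250 bases before the start site in RefSeq (GRCm38.p6), on either strand, ATTTGCAT was found for 5 of 10 H2B genes and 7 of 17 H2A genes, and for 0 of 6 H1, 0 of 7 H3 and 0 of 8 H4 genes, against 1.81% of all 27025 genes. The letters CCAAT were found for 6 of 6 H1, 17 of 17 H2A, 10 of 10 H2B, 5 of 7 H3 and 2 of 8 H4 genes, against 37.5% of all genes, and TATAAA for 4 of 6, 7 of 17, 7 of 10, 2 of 7 and 4 of 8, against 14.3%. Windows of 3 H2B genes follow, with the octamer in capitals, to show the element beside genes that were higher in shLincU.
Hist1h2bm, chr13:21721993-21722043, plus strand: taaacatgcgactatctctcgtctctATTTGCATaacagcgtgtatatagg
Hist1h2bb, chr13:23746618-23746677, plus strand: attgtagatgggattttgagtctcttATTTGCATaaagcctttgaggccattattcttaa
Hist2h2bb, chr3:96269626-96269685, plus strand: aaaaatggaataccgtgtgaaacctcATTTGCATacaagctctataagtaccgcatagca

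The 4 measured H2B genes with the octamer were Hist1h2bm at 0.72, Hist1h2bb at 0.72, the testis-specific gene Hist1h2ba at 0.47 and Hist2h2bb at 0.34. The other H2B gene with it, Hist1h2bg, was well above background on shCtrl only and at least 1.43-fold lower in shLincU. Of the 5 measured H2B genes with a window and no match, Hist1h2bf was at 0.57 and Hist1h2bn at 0.31, and Hist3h2ba, Hist1h2bq and Hist1h2bp were at -0.06, -0.47 and -0.54. The probes of Hist1h2bm, Hist1h2bb and Hist1h2ba have a GC content of 51.7% to 55%, and Hist2h2bb is a mean of 0.90 and -0.21. Without the octamer, GC content was 46.7% for Hist1h2bf, 66.7% for Hist1h2bn, 60% and 35% for Hist3h2ba, 40% for Hist1h2bq and 36.7% for Hist1h2bp. The part of the octamer and of the probes in this order was not tested. Among H2A genes the order was not the same. The 6 measured ones with the octamer were Hist1h2ab at 0.63, Hist1h2aa at 0.32, Hist3h2a at 0.32, Hist1h2ah at 0.16, Hist2h2ac at -0.03 and Hist1h2ae at -0.09, which include the 3 lowest H2A genes. The 7 without it ran from 0.21 to 0.77, the highest at Hist1h2ai, whose probe overlaps probes of other H2A genes. The probe of Hist1h2ah lists 4 histone genes, and bright H2A probes may hold RNA of several H2A genes. Such values cannot be assigned to the promoter of a single gene. None of the windows of 7 H3 and 8 H4 genes holds the octamer. All 9 H3 and 9 H4 genes, with or without a window, had medians of 0.65 and 0.66.

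Genes that act with these histones differed less. Replication-independent histone genes mostly have polyadenylated messenger RNAs, and many are made throughout the cycle, though not all members of this list. They had a median of 0.12 over 11 measured of 14, and 1 was at least 1.5-fold higher, where 4.78% of all genes were. It was H1foo, the oocyte linker histone, at 0.61 (levels -3.57 and -2.97), a dim probe beside discordant spots. H2afy, which encodes macroH2A, was at 0.55 (levels 0.63 and 1.18) and H2afj at 0.31 (levels 8.46 and 8.76).

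The factors that transcribe and process histone messenger RNAs had a median of 0.04 over 28 measured of 29, with 1 at least 1.5-fold higher. It was Ccne2, a cyclin E that drives entry into S phase, at 0.62 (levels -3.21 and -2.59), a dim gene measured by 1 probe. Npat, the coactivator of histone gene transcription, was at -0.39 (levels 0.49 and 0.10), and Sympk, a scaffold of the 3′ cleavage complex, at 0.35 (levels 2.26 and 2.61). The histone chaperones, which carry histones to DNA, had a median of 0.09 over 21 genes with 0 past 1.5-fold either way, led by Rbbp7 at 0.44, Hira at 0.35 and Nasp at 0.26. No member of these lists but H1foo and Ccne2 reached the 1.5-fold size seen in 19 histone genes. Over all genes 4.78% were higher and 4.85% lower by that size, so such small counts do not set these lists apart from other genes.

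DNA replication genes, which are also expressed in S phase, had a median of -0.05 over 42 genes. Of the 42, 15 were above 0, against 53.1% of all genes. Past 1.5-fold were 0, where 4.78% of all genes were higher and 4.85% lower by that size. The largest differences were Uhrf1, which carries DNA methylation through replication, at 0.47, Rpa3, a subunit of the single-strand binding complex, at -0.44, and Rfc1, of the clamp loader, at -0.38.

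**Figure D4:**
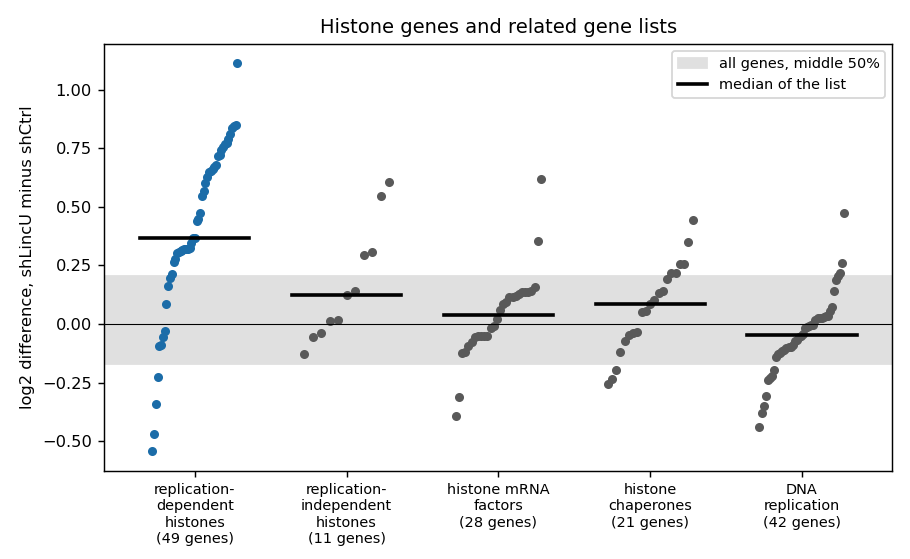
Difference in level (shLincU minus shCtrl, log2) of each measured gene of the replication-dependent histones and of 4 related lists, with the median of each list as a black line and the middle 50% of all genes as a grey band. The histone genes have a median of 0.37, and the other lists have medians from -0.05 to 0.12.

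The 8 markers of mouse embryonic stem cells were all measured, with a median of 0.01 and differences from -0.13 to 0.28. Of 10 markers of fibroblast feeder cells, 9 were measured on both arrays, 6 lower and 3 higher in shLincU, with a median of -0.94. At least 2-fold lower were 4 of the 9, where 1.53% of all genes were. Their linear levels summed to 12.6 for shCtrl and 6.65 for shLincU, in multiples of the 75th percentile. The largest differences were Dcn at -2.41, Lox at -2.15 and S100a4 at -1.88. The higher ones were Col3a1 at 0.64, Col1a1 at 0.45 and Pdgfrb at 0.43, and the tenth marker, Lum, was well above background for shLincU only. Feeder markers thus differed between the groups in both directions, and their part in the histone differences was not tested.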

How the data were processed

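The authors deposited, per the file headers, an intensity per spot from Agilent Feature Extraction 10.7.1.1, background-corrected by spatial detrending, with flags of 0 or 1 (other columns) for spots above background or marked as outliers. The deposited value table holds log2 values with a median of 5.65 on each array and a slope of 1.00 on the scanner values; its centring and normalization are not given in the sources used here. Groups follow the genotype in the labels.

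Control spots and outlier spots (98 and 138) were left out, spots of a probe averaged, and the 75th percentile over non-control probes subtracted on the log2 scale. Genes, named as in the files, were given the average of those probes that the software marked well above background for both samples. Where an array had no probe above background, a bound used the higher of its lowest signal above background and the probe's own. With 1 array a group, no test could be run; counts use 2-fold and 1.5-fold. Signal over background and the number of arrays limit the precision. The calculation was tested on simulated data. Of the 56 names 55 matched RefSeq. A spot was called beside discordant spots where at least 2 of its 14 nearest differed 2-fold or more the same way. Python 3.11.15, pandas 2.3.3, R 4.3.3 and limma 3.58.1 were used.

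Members and lists were chosen with earlier results of these data known. Named were genes at least 2-fold apart, the 3 highest and 3 lowest of each type, all Hist3 and Hist4 genes, genes whose probes differ by over 1, and the 3 largest of each list, 34 histone genes in all; Hist1h4d, Hist2h3b, Hist1h3a, Hist2h2be, Hist1h2ak, Hist1h2af, Hist1h2ag, Hist1h2aa, Hist1h2ba and Hist1h2bn were chosen after their values were seen. Alternatives were normexp, quantile normalization, other filters and probe rules, parts of the slide and the deposited table; scaling to spike-ins, leaving out probes without RefSeq accessions or the H2A genes, and the table by type were added after seeing the data.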

Additional observations from a re-analysis of the deposited data

How the results depend on the processing

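The median of the histone genes ran from 0.32 to 0.56 over 15 alternatives, and the number at least 1.5-fold higher from 11 to 21 over 13; spike-in scaling, left out of both ranges, turned the median to -0.52, with 4 genes at least 2-fold lower, where 32.4% of all genes were, and 0 at least 1.5-fold higher, where 0.404% were. Only Hist1h4h was 2-fold apart, and the count was 0 with normexp background correction, with genes under the median level left out, in the upper rows of the slide and without spots beside discordant spots; at 1.5-fold it was 19. The 1.5-fold count was 11 in the upper and 11 in the lower rows, where 24 and 31 genes were measured. The H2A median was 0.077 with quantile normalization and 0.065 in the deposited table, and the H3 median 0.31 in the lower rows. H3 had a higher median than H4 with quantile normalization (0.66 and 0.64), the deposited table (0.66 and 0.63), the brightest probe and the upper rows (0.65 for both types in each). The Hist3 median was -0.056 without the background filter and -0.12 in the upper rows.

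Signs turned where a part of the slide or a filter left another probe: Hist1h1c was at -0.37 in the upper rows, Hist2h2bb at -0.21 in the lower rows, Hist1h1d at -0.30 and Hist2h2ac at 0.17 without the background filter, and Hist3h2ba at 0.011 in the lower rows and without probes that list no RefSeq accession. With normexp, Hist1h2ae was at 0.10, Hist1h2bq at 0.062, Hist2h3c1 at 0.093 and Hist2h3c2 at 0.18. With quantile normalization and in the deposited table, Hist1h2ah was at -0.10 and -0.11 and Hist1h2ag at -0.034 and -0.027. Beyond the choice of probes, the cause was not tested. No paired analysis was possible because there is a single array of each kind, which is also why none was omitted in turn.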
